A study of Homo sapiens with 2 samples.

Results

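The proteasome genes described here are the protein-coding genes whose symbol is PSMA, PSMB, PSMC, PSMD, PSME or PSMG followed by a number, taken from tables of read counts per gene. The symbols matched 46 of the 57905 gene lines. Pseudogenes and non-coding lines, 51 in all, were left out, as were 2 protein-coding genes with longer symbols, PSMC3IP and PSME3IP1, which encode interacting proteins and not subunits. PSMB3 was not analysed here. The cells were K562, an established line from a human chronic myeloid leukaemia with erythroid features, exposed to inhibitors of transcription or of chromatin regulators for 6 h in technical duplicate on 2 plates of 96 wells. All wells held the same untransfected line; 74 treatments were each set against DMSO, the vehicle, and no source used here gives the doses. Among the treatments used most were AZ5576 and ActD with 6 wells each, and DRB, THZ531, OTS964, Okadaic acid, Quisinostat and Panobinostat with 2 wells each, against 24 DMSO wells, 12 per plate. Because the duplicates are technical and lie in the same well position on both plates, p-values measure only the spread between wells of 1 experiment.

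The proteasome degrades proteins tagged with ubiquitin. Its core particle is a barrel of outer alpha rings (PSMA genes) and inner beta rings (PSMB genes), and the beta rings carry the protease sites. The 19S regulatory particle holds a ring of ATPases (PSMC genes), which unfold the substrate, and further subunits (PSMD genes) that bind, deubiquitinate or admit it. PSME genes encode alternative activators of the core, and PSMG genes encode chaperones that help to assemble the alpha ring. In human cells, the transcription factor NRF1, encoded by NFE2L1, raises the transcription of proteasome genes when the proteasome is inhibited, and binds antioxidant response elements in their promoters.

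The letters TGAC, any 3 bases and GCA, a form of that element, were sought on both strands in the 250 bases before each gene's start in the RefSeq promoter table (build GRCh38.p14). They were present in 2.59% of all 35116 promoters and in 6 of 48 promoter entries of the proteasome genes, which cover 40 of the 46 genes. The matches of the 5 genes that were also tested are shown, read along the gene's strand, because these genes moved in different ways in the results. Capitals mark the element. For PSMC5, PSMD9 and PSME4 the element lies on the strand opposite to the gene, so the capitals show its reverse complement. A match is a description of letters and not a site shown to be bound.
PSMA4, chr15:78540635-78540694, plus strand: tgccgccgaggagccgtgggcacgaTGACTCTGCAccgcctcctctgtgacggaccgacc
PSMC5, chr17:63827638-63827697, plus strand: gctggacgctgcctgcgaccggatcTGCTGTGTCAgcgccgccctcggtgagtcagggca
PSMD9, chr12:121888615-121888674, plus strand: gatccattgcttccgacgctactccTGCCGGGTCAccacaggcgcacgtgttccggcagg
PSMD12, chr17:67366708-67366767, minus strand: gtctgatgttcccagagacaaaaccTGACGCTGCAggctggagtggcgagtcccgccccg
PSME4, chr2:53970994-53971053, minus strand: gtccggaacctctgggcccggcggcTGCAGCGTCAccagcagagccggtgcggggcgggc

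Human counts per well ran from 173553 to 1906446, with a median of 761911.5. Wells of the first plate column were shallower, with a median of 265248 counts against 800352.5 in the other columns. Of the 46 genes, 40 passed the filter on low counts and were tested among 10312 genes. A gene was called higher (rose) or lower (fell) at a Benjamini-Hochberg adjusted p under 0.05 in edgeR's quasi-likelihood test, with wells scaled by TMM, which sets most genes as unchanged on balance. The 6 others were PSMA6 (217 counts over all 192 wells), PSMA8 (0), PSMB8 (12), PSMB9 (198), PSMB10 (535) and PSMB11 (2). PSMB8, PSMB9 and PSMB10 encode the catalytic subunits of the immunoproteasome, which replace standard ones in immune cells or after interferon, and they were too low to compare in any treatment. PSMA6 is uncertain, because its 4 pseudogene lines together held 14854 counts. Reads may also be shared with pseudogene copies for PSMC1 (65.7% of the counts of gene and copies lay in the copies), PSMA2 (38.0%) and PSME2 (36.4%), so their values are uncertain. The erythroid markers fitted the line, with a median of 255 CPM (TMM-scaled counts per 1000000) for GATA1 in DMSO wells, while HLA-DRA and MS4A1, markers of other blood cells, had 0 counts there and CD3D a median of 62.3 CPM.

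PSMA5 and PSMB4 followed the position of the well and are judged apart. PSMA5, an alpha ring subunit, had 182 to 289 CPM in columns 1 to 3 of plate 1 and 150 to 245 CPM on plate 2, against 243 to 408 CPM and 203 to 323 CPM in columns 4 to 10 and 12. Its highest position held Phendione, a compound of the set (556 and 531 CPM on plates 1 and 2), and the next highest, in the same column, held DMSO (535 and 464 CPM). The high PSMA5 level was thus measured in a DMSO position too. The log2 fold change of PSMA5 under Phendione of 0.89 ± 0.12 (SE; adjusted p = 6.48e-10, edgeR) comes from 1 such position, and the part of position in it was not tested.

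PSMB4, a beta ring subunit, varied from well to well in the same pattern on both plates. Its 3 lowest positions held Pirarubicin (161 and 167 CPM), RGFP966 (158.7 and 171 CPM) and RG108 (173 and 157 CPM), and its highest position held A485 (365.7 and 385 CPM). DMSO wells themselves spanned 174 to 368 CPM. Over the 12 DMSO positions, which share a vehicle but not a barcode, the log2 CPM of the 2 plates correlated at r = 0.67 for PSMB4 and r = 0.81 for PSMA5. Over the 38 other genes this r ran from -0.62 to 0.95 with a median of 0.36, and the highest value was that of PSMD8. Position therefore also moved with genes that are not set apart, PSMA3 (r = 0.86) and PSMB1 (r = 0.85) among them. Of the 40 genes, 31 had a lower median in DMSO wells of column 1 than in the other DMSO wells.

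**Figure D1:**
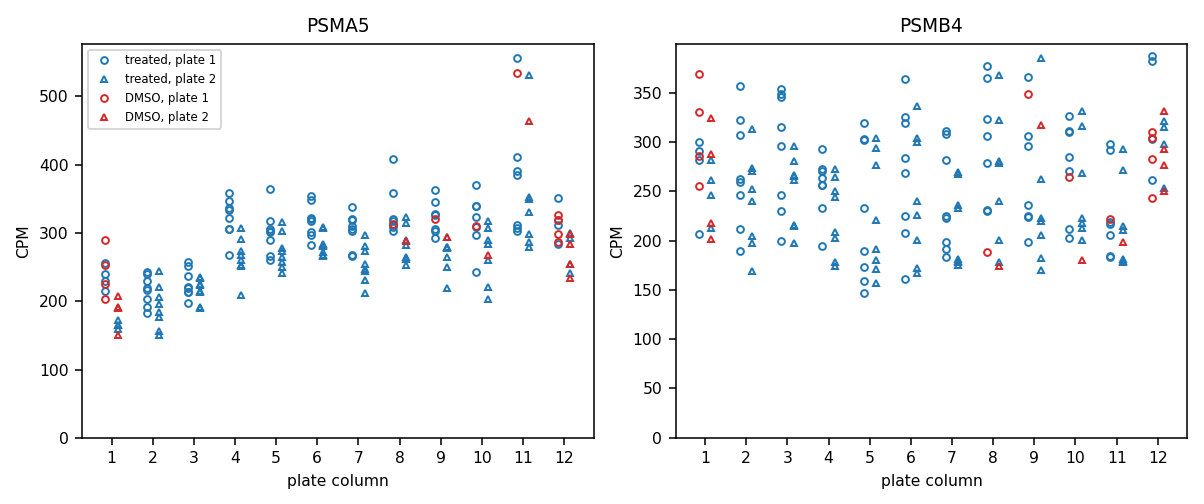
CPM of PSMA5 and PSMB4 in every well by plate column (circles plate 1, triangles plate 2; blue treated wells, red DMSO wells). PSMA5 is low in columns 1 to 3 and peaks in column 11, where a DMSO well reached 535 CPM, and PSMB4 spreads from well to well within a column.

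AZ5576, an inhibitor of the transcription kinase CDK9, gave the most calls. Under AZ5576, 16 of the 40 genes rose and 4 fell, against 19.2% of all genes called higher and 28% called lower. The median log2 fold change was 0.16 over the 40 genes and -0.14 over all 10312. The rises lay mostly in the core: 4 of 6 alpha ring genes and 5 of 6 beta ring genes rose and none fell. Outside the core, 1 of 6 ATPases (PSMC5) and 2 of 4 activators (PSME1 and PSME3) rose; of the 14 other 19S genes 4 rose and 2 fell; and of the 4 assembly chaperones none rose and 2 fell. PSMA5 and PSMB4 were not called, at 0.16 ± 0.10 and 0.15 ± 0.09 (adjusted p = 0.15 and 0.17, edgeR). Log2 fold change rose with the mean log2 CPM of a gene, at r = 0.45 over the 40 genes and r = 0.38 over all genes. Under ActD, DRB and THZ531 this r was 0.30, 0.41 and 0.43 over the 40 genes. Over all genes it was 0.35, 0.36 and 0.31. The part of expression level in the core rises and in the medians was not tested.

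PSMA3, an alpha ring subunit, had 370 to 465.8 CPM in the 6 AZ5576 wells (median 432), against 161 to 348 CPM in the 24 DMSO wells (median 292). PSMB2, a beta ring subunit without a protease site, had 748 to 836 CPM in AZ5576 wells (median 819), against 369 to 635 CPM in DMSO wells (median 575). For both genes the groups did not overlap. The log2 fold changes were 0.57 ± 0.07 for PSMA3 and 0.50 ± 0.06 for PSMB2 (adjusted p = 7.85e-12 and 1.25e-13, edgeR). PSMD10, known as gankyrin, a chaperone of 19S assembly, had 49.9 to 68.8 CPM in AZ5576 wells (median 54.6), against 30.7 to 55.9 CPM in DMSO wells (median 42.0). Its groups overlapped, and its log2 fold change was 0.45 ± 0.13 (adjusted p = 0.00421, edgeR).

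PSMG3, an assembly chaperone that works with PSMG4, had 89.4 to 167 CPM in AZ5576 wells (median 135), against 147 to 218 CPM in DMSO wells (median 174). PSMG2, the partner of PSMG1, had 46.3 to 86.1 CPM in AZ5576 wells (median 75.1), against 41.6 to 114 CPM in DMSO wells (median 94.3). Both overlapped with DMSO, both were below the DMSO mean of their plate in all 6 wells, and both had a log2 fold change of -0.40, with SE 0.09 for PSMG3 and 0.11 for PSMG2. PSMD5, a chaperone of 19S assembly, fell by 0.69 ± 0.18 on the log2 scale and PSMD12, a subunit of the 19S lid, by 0.34 ± 0.13. Neither was below the DMSO mean in every AZ5576 well. Of the genes with the element shown above, PSMA4 and PSMC5 rose (0.33 ± 0.06 and 0.29 ± 0.07), PSMD12 fell, and PSMD9 and PSME4 were not called.

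**Figure D2:**
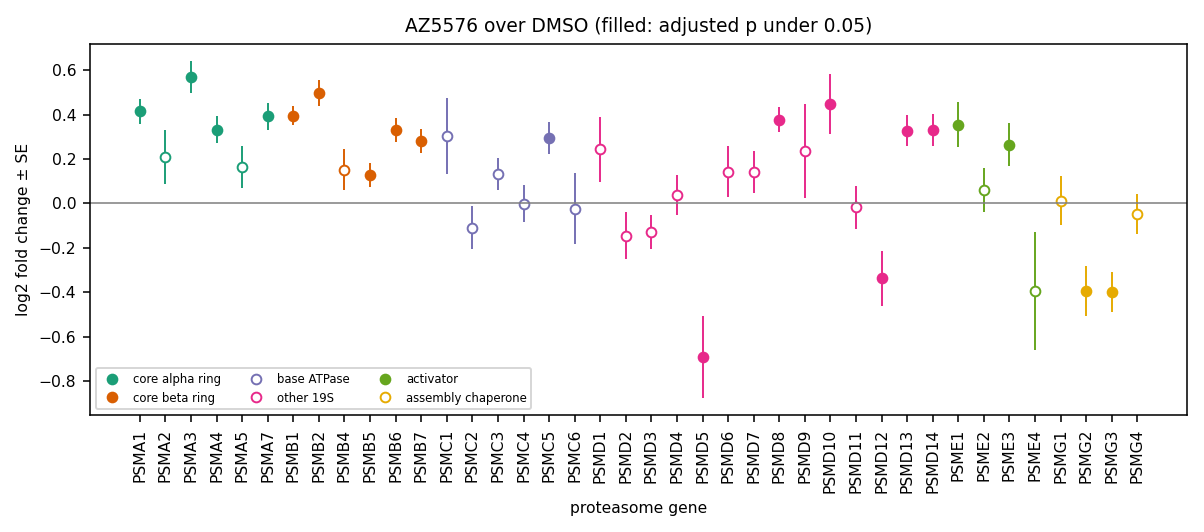
Log2 fold change of AZ5576 over DMSO with SE for the 40 tested genes, coloured by role; filled points have an adjusted p under 0.05. Core genes lie above 0, from 0.13 for PSMB5 to 0.57 for PSMA3, and PSMD5 is lowest at -0.69.

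These changes are relative to the typical gene, as TMM scaling sets it, and their direction depends on the scaling. All proteasome genes, tested or not, together held 0.903% to 0.939% of human counts in AZ5576 wells (median 0.919%). In DMSO wells they held 0.887% to 1.01% (median 0.957%), so their share of the counts did not rise. With wells scaled to the ERCC spike-in RNAs, 0 of the 40 genes were called higher and 37 lower under AZ5576, and the log2 fold changes of PSMA3 and PSMB2 were -0.15 and -0.23. The median of all genes then stood at -0.87 and that of the proteasome genes at -0.57. Over all genes, the calls under ERCC scaling were 0.388% higher and 78.8% lower. The difference between the 2 medians was 0.30 with either scaling. A change of scaling shifts all genes by nearly the same amount, so this difference could hardly change and is not a second result. Human counts per ERCC count were 2.96 to 4.32 in AZ5576 wells (median 3.66), against 2.95 to 7.03 in DMSO wells (median 4.93). The same turn was seen under ActD, DRB, THZ531 and OTS964, where ERCC scaling called 0 genes higher and 40, 34, 31 and 29 lower. Over all genes, 89.6%, 65.5%, 54.2% and 53.1% were called lower under these treatments with that scaling. In wells, fewer cells and less RNA per cell cannot be told apart.

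**Figure D3:**
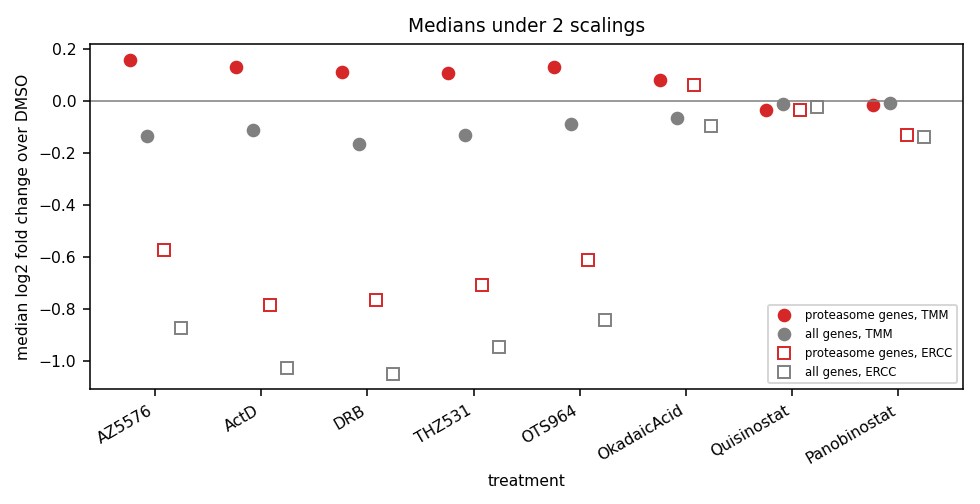
Median log2 fold change over DMSO of the 40 proteasome genes (red) and of all tested genes (grey) under TMM scaling (filled circles) and ERCC scaling (open squares). Under AZ5576 the proteasome median is 0.16 with TMM and -0.57 with ERCC. It lies above the median of all genes in both, a gap that scaling alone can hardly change.

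ActD, the transcription blocker actinomycin D, gave 14 rises and 4 falls, against 18.6% of all genes called higher and 24.6% called lower. In the alpha ring 5 of 6 genes rose and in the beta ring 4 of 6, while none of the 6 ATPases was called. PSMA1, an alpha ring subunit, had 436 to 542 CPM in the 6 ActD wells (median 489), against 275 to 400 CPM in DMSO wells (median 351). Those groups did not overlap, and the log2 fold change was 0.46 ± 0.05 (adjusted p = 1.98e-13, edgeR). PSME3, the activator PA28 gamma of the nucleus, had 134 to 180 CPM in ActD wells (median 152), against 56.5 to 136 CPM in DMSO wells (median 102), with a log2 fold change of 0.54 ± 0.09. PSMA2 reached 0.46 ± 0.11 but shares reads with copies.

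The chaperone PSMG2 had 46.4 to 67.3 CPM in ActD wells (median 63.6), against 41.6 to 114 CPM in DMSO wells (median 94.3). It fell by 0.62 ± 0.12 on the log2 scale (adjusted p = 1.24e-06, edgeR); without the DMSO wells of column 1, which held the lowest values, the groups did not overlap. PSMD5 and PSMG3 fell by 0.39 ± 0.16 and 0.27 ± 0.09. PSMD3, a 19S lid subunit, fell by 0.33 ± 0.08. PSMA5 and PSMB4 were not called under ActD.

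DRB, an inhibitor of CDK9 and other kinases, gave 11 rises and 3 falls, against 12.8% of all genes called higher and 15.6% called lower; 1 of the falls was PSMB4 (-0.44 ± 0.17). PSMA7, an alpha ring subunit, had 789 and 862 CPM in the 2 DRB wells, against 467 to 715 CPM in DMSO wells (median 604). PSMB2 had 818 and 755 CPM in DRB wells, against 369 to 635 CPM in DMSO wells. Neither gene overlapped with DMSO, and the log2 fold changes were 0.44 ± 0.10 and 0.46 ± 0.09 (adjusted p = 0.000109 and 2.28e-05, edgeR). PSMA3 followed at 0.45 ± 0.12. PSMG3 had 118 and 126 CPM in DRB wells, against 147 to 218 CPM in DMSO wells, without overlap, and fell by 0.54 ± 0.15. PSMD5 fell by 0.69 ± 0.30 (adjusted p = 0.0491, edgeR), which was no longer called without column 1. Leaving out column 1 also lowered the number of rises under DRB to 8.

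THZ531, an inhibitor of CDK12 and CDK13, gave 8 rises and 2 falls, against 7.27% of all genes called higher and 8.09% called lower. PSMB6, a beta ring subunit with caspase-like activity, had 525 and 590 CPM in THZ531 wells, against 260 to 460 CPM in DMSO wells (median 407). It did not overlap with DMSO, and the log2 fold change was 0.45 ± 0.09 (adjusted p = 7.8e-05, edgeR). PSMA3 and PSME3 rose by 0.49 ± 0.13 and 0.52 ± 0.16. PSMD5 had 25.3 and 6.24 CPM in THZ531 wells, against 22.4 to 70.8 CPM in DMSO wells (median 41.4). These are 9 and 2 reads, so the log2 fold change of -1.34 ± 0.44 (adjusted p = 0.0067, edgeR) rests on few. PSMD3 fell by 0.39 ± 0.15 and was no longer called without column 1.

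OTS964, an inhibitor of CDK11, gave 4 rises and 3 falls, against 8.44% of all genes called higher and 8.63% called lower. PSMB1, a beta ring subunit, had 2182 and 1956 CPM in OTS964 wells, against 1257 to 1755 CPM in DMSO wells (median 1569). PSMD8, a 19S lid subunit, had 657 and 626 CPM in OTS964 wells, against 365 to 556 CPM in DMSO wells (median 506). Neither gene overlapped with DMSO, and the log2 fold changes were 0.40 ± 0.07 and 0.37 ± 0.09. PSMA3 and PSMA7 rose as well. PSMG3 had 100 and 109 CPM in OTS964 wells, against 147 to 218 CPM in DMSO wells, and fell by 0.75 ± 0.16 (adjusted p = 6.17e-05, edgeR). PSMG2 fell by 0.73 ± 0.20, and PSMD11, a 19S lid subunit, by 0.47 ± 0.17. The 2 wells of PSMG3 lay below every DMSO well.

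**Figure D4:**
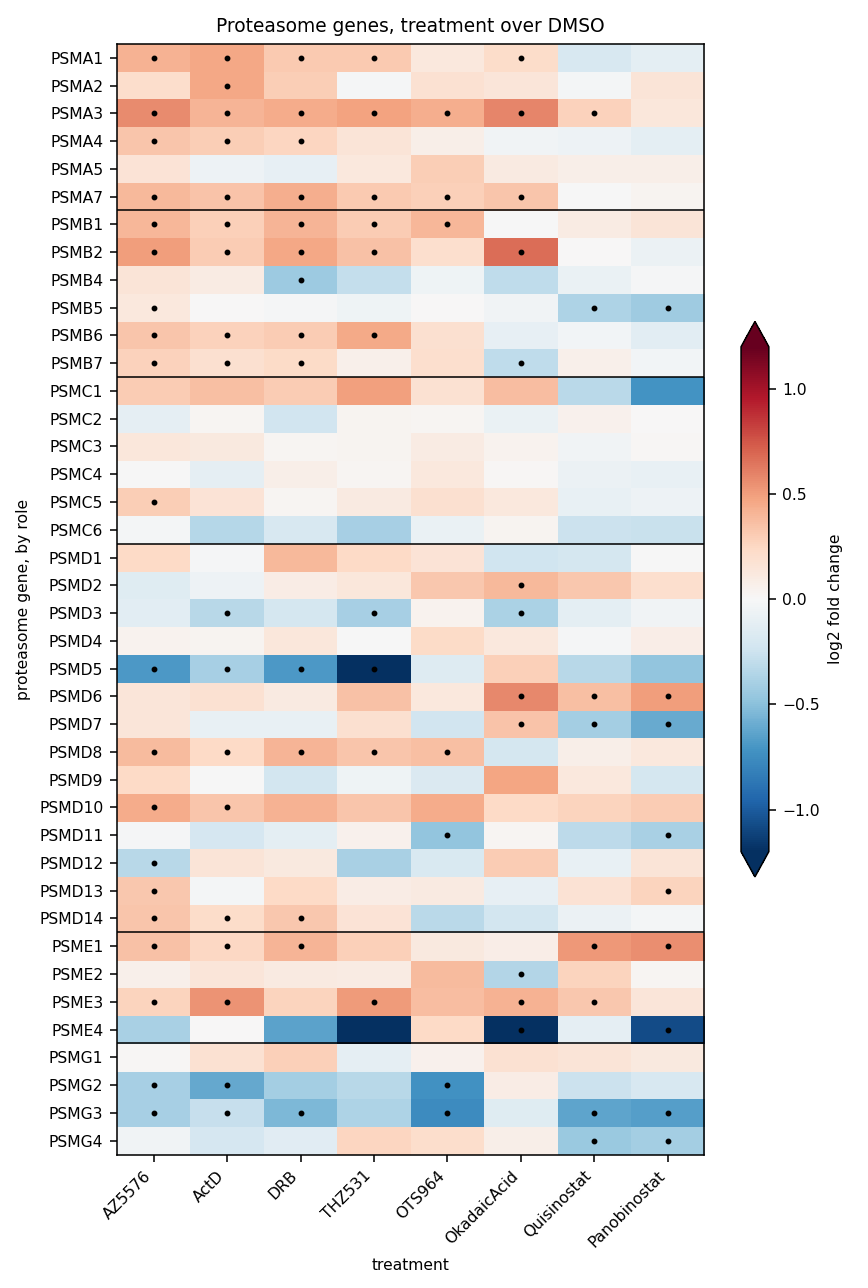
Log2 fold change of each tested gene (rows, by role) under 8 treatments over DMSO (columns); red is higher, blue lower, and dots mark an adjusted p under 0.05. The treatments share their DMSO wells. PSMA3 under AZ5576 is at 0.57, and PSMD5 under THZ531 is beyond the colour scale at -1.34.

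Okadaic acid, an inhibitor of the protein phosphatases PP1 and PP2A, moved a different mix. It gave 8 rises and 4 falls, against 14.4% of all genes called higher and 15.5% called lower. PSMB2 had 883 and 934 CPM in Okadaic acid wells, against 369 to 635 CPM in DMSO wells (median 575). PSMA3 had 434 and 422 CPM in Okadaic acid wells, against 161 to 348 CPM in DMSO wells. PSMD6, a 19S lid subunit, had 119 and 112 CPM in Okadaic acid wells, against 34.9 to 109 CPM in DMSO wells (median 71.0). None of the 3 overlapped with DMSO. The log2 fold changes were 0.67 ± 0.08, 0.59 ± 0.10 and 0.58 ± 0.13 in that order of genes (adjusted p = 5.64e-12, 4.71e-07 and 0.000247, edgeR).

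Among the falls under Okadaic acid, PSME4, the activator PA200, had 5.13 and 10.1 CPM, against 6.99 to 33.2 CPM in DMSO wells (median 17.4). This is 5 and 9 reads, the groups overlapped, and the log2 fold change was -1.22 ± 0.42 (adjusted p = 0.00583, edgeR). PSMD3 had 132 and 165 CPM in Okadaic acid wells, against 159.2 to 261 CPM in DMSO wells, and fell by 0.38 ± 0.11. PSMB7, the beta subunit with trypsin-like activity, fell by 0.30 ± 0.08. PSME2, a subunit of the interferon-inducible activator PA28, fell by 0.35 ± 0.14 and was not called without column 1; its reads may be shared with copies. PSMB4 was at -0.31 ± 0.14 (adjusted p = 0.0749, edgeR).

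Set directly against AZ5576, Okadaic acid had 5 genes higher and 9 lower, where 13% of all genes were higher and 9.69% lower. PSMB4 was among the 9. PSMD5 and PSMD12 were higher under Okadaic acid than under AZ5576 (0.98 ± 0.24 and 0.64 ± 0.17), and PSMD8 and PSMB7 were lower (-0.59 ± 0.10 and -0.58 ± 0.09). PSMA3 and PSMB2 were not among the called genes. Both treatments are single compounds with no dose given, so the sizes do not compare potencies. Okadaic acid lay in plate column 10, and AZ5576 in columns 11 and 12, so column and compound cannot be told apart here either.

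Quisinostat and Panobinostat inhibit histone deacetylases, and few core genes were called under either. Quisinostat gave 4 rises and 4 falls, against 10.8% of all genes called higher and 9.2% called lower, and Panobinostat 3 rises and 6 falls, against 10.2% and 8.09%. These shares are near or below the background except for the Panobinostat falls, at 15%. PSME1, the other PA28 subunit, had 117 and 109 CPM in Quisinostat wells and 120 and 112 CPM in Panobinostat wells, against 38.2 to 103 CPM in DMSO wells (median 78.1). Neither treatment overlapped with DMSO, and the log2 fold changes were 0.52 ± 0.12 and 0.56 ± 0.13 (adjusted p = 0.000725 and 0.000797, edgeR). PSMD6 rose by 0.36 ± 0.14 and 0.50 ± 0.14 with overlap; under Quisinostat the call was lost without column 1.

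PSMG3 had 112 and 116 CPM in Quisinostat wells and 123 and 99.4 CPM in Panobinostat wells, against 147 to 218 CPM in DMSO wells. It did not overlap with DMSO in either treatment, and fell by 0.64 ± 0.13 and 0.66 ± 0.14 on the log2 scale (adjusted p = 1.51e-05 and 3.69e-05, edgeR). Its partner PSMG4 fell by 0.44 ± 0.13 and 0.41 ± 0.14. PSMD7, a 19S lid subunit, had 98.7 and 121 CPM in Quisinostat wells and 92.7 and 99.4 CPM in Panobinostat wells, against 86.6 to 177 CPM in DMSO wells (median 145). It overlapped with DMSO only through the column 1 wells and fell by 0.40 ± 0.14 and 0.60 ± 0.15. PSMB5, the beta subunit with chymotrypsin-like activity, fell by 0.37 ± 0.08 and 0.43 ± 0.08. Under Panobinostat, PSMD11 fell too, and PSME4 fell by 1.07 ± 0.45 from 2 and 10 reads, with 2.41 and 16.0 CPM in the wells.

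**Figure D5:**
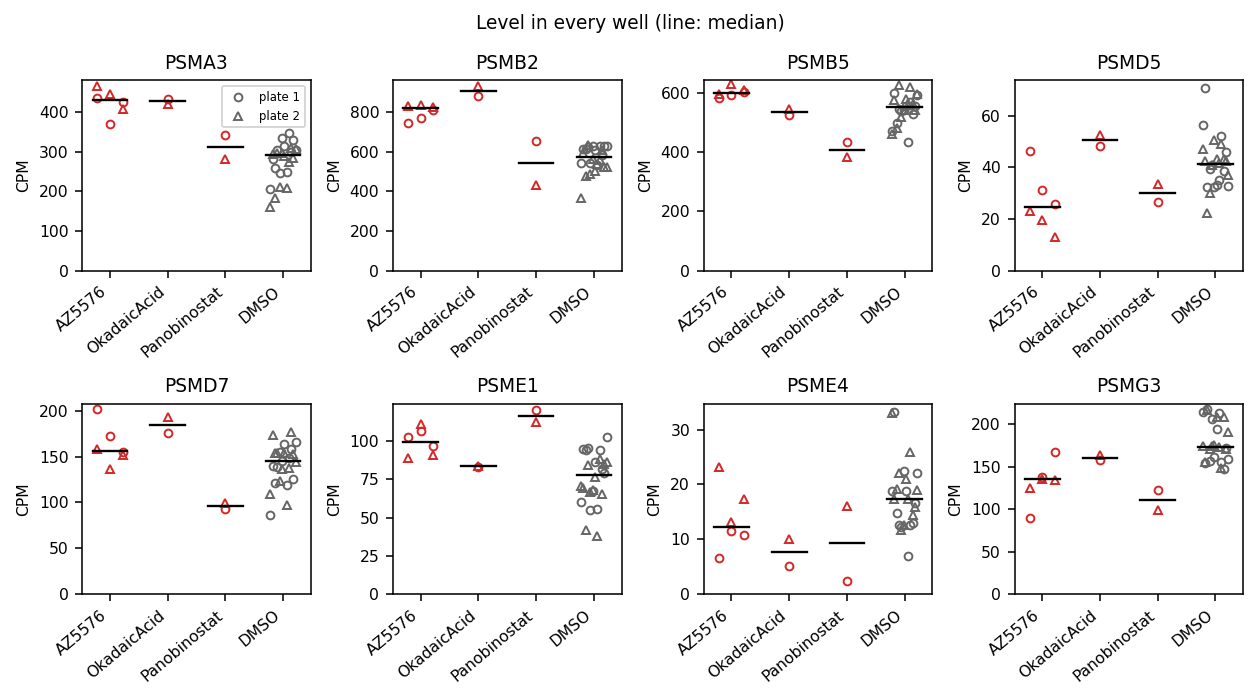
CPM of 8 genes in every well of AZ5576, Okadaic acid, Panobinostat and DMSO (circles plate 1, triangles plate 2, line at the median). PSMA3 and PSMB2 lie above DMSO in AZ5576 and Okadaic acid wells, and PSMG3 lies below DMSO in both Panobinostat wells.

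In the direct test, Quisinostat had 1 gene higher and 14 lower than AZ5576, where 18.5% of all genes were higher and 11.8% lower. The 14 included 4 alpha ring genes (PSMA1, PSMA3, PSMA4 and PSMA7) and 5 beta ring genes. PSMA1 differed by -0.61 ± 0.09 and PSMB5 by -0.50 ± 0.09 (adjusted p = 4.64e-08 and 3.83e-06, edgeR). PSMD2, the large 19S base scaffold, was the 1 gene higher under Quisinostat (0.47 ± 0.15). Quisinostat lay in plate column 4, and AZ5576 in columns 11 and 12, so that column and compound cannot be told apart in this contrast.

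JQ1, a BET bromodomain inhibitor with 6 wells, was looked at after its values were seen, for PSMG3. It gave 1 rise and 5 falls, against 6.92% of all genes called higher and 7.33% called lower. PSMG3 had 64.4 to 113 CPM in JQ1 wells (median 87.7), against 147 to 218 CPM in DMSO wells, without overlap, and fell by 1.03 ± 0.11 (adjusted p = 1.81e-16, edgeR). Of the 6 JQ1 wells, 4 lay in column 1, where the median of DMSO was 210 CPM against 167 CPM in the other columns. PSMB5, PSMD7, PSMG2 and PSMG4 fell as well, by 0.36 ± 0.06, 0.41 ± 0.11, 0.38 ± 0.12 and 0.33 ± 0.10. Each of these genes overlapped with DMSO. For PSMD7 the DMSO median was 119.8 CPM in column 1 against 150.6 CPM in the other columns. It was also lower in column 1 for PSMG2 (87.7 against 94.8 CPM) and for PSMB5. For PSMG4 it was higher there (129.0 against 119.7 CPM). The part of column in these falls was not tested. PSMB1 was the rise, at 0.13 ± 0.04.

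The partners of the proteasome are a list of 11 genes for further subunits, assembly factors and associated enzymes, and all 11 were tested. Of these, 5 rose and 3 fell under AZ5576, against 19.2% of all genes called higher and 28% called lower. Under Okadaic acid 4 rose and 1 fell, against 14.4% and 15.5% of all genes. POMP, the chaperone of core maturation, rose by 0.40 ± 0.04 under AZ5576 and by 0.53 ± 0.04 under ActD. AKIRIN2, which brings proteasomes into the nucleus, had 3.27 to 9.91 CPM in AZ5576 wells (median 5.40), against 6.40 to 38.3 CPM in DMSO wells (median 23.1), and fell by 2.20 ± 0.38 (adjusted p = 5.75e-11, edgeR). These AZ5576 levels are low, and the groups overlapped. In Okadaic acid wells AKIRIN2 had 47.2 and 39.2 CPM, above every DMSO well, and rose by 0.84 ± 0.19. PSMF1, the core inhibitor PI31, rose by 1.02 ± 0.15 under Okadaic acid.

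Of 10 tested genes of the NRF1 pathway, 1 rose and 5 fell under AZ5576, against 19.2% of all genes called higher and 28% called lower. The median log2 fold change was -0.74 over these genes and -0.14 over all genes. NFE2L2, which encodes the related factor NRF2, fell by 1.61 ± 0.32 under AZ5576 and fell by 1.77 ± 0.41 under Quisinostat. NFE2L1 fell by 1.02 ± 0.44 under AZ5576 (adjusted p = 0.0273, edgeR), at a low level. It had 1.64 to 9.91 CPM in AZ5576 wells (median 3.83), against 4.31 to 15.6 CPM in DMSO wells (median 8.06), with overlap. Under ActD (-0.07 ± 0.32) and the other main treatments NFE2L1 was not called. MAFF was not tested.

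Over all 74 treatments, 93 of 2960 gene-by-treatment tests were called higher (3.14%) and 73 lower (2.47%), against 2.53% and 2.41% over all genes. These calls include the genes judged apart: PSMA5 with 1 higher and 4 lower, and PSMB4 with 1 higher and 8 lower. The 74 treatments include EtOH, under which only PSMB4 was called, at -0.56 ± 0.15 (adjusted p = 0.0262, edgeR). In 36 treatments no proteasome gene was called, and in 11 at least 5 were. Among treatments not yet described, the median of the proteasome genes exceeded that of all genes most under THZ1 (0.27), Triptolide (0.26) and A159 (0.22). THZ1 is a covalent inhibitor of CDK7, and triptolide blocks the TFIIH helicase XPB. In A159 wells 8 of the 40 genes rose and 1 fell, against 9.32% of all genes called higher and 11.7% called lower. The rises included PSMA1 (log2 fold change 0.43) and PSMB2 (0.40). PSMB4, which is judged apart, was also counted among them (0.45). The A159 position was among the highest of PSMB4 (365 and 368 CPM), and the part of position was not tested. Without PSMA5 and PSMB4, 7 genes rose.

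At the other end stood MI-3, GSK_J4_HCl and GSK_J1, each with a median lower than that of all genes by 0.18. All 3 lay in columns 2 and 3, and so did 13 of the 15 treatments at this end. Each of the 15 treatments with 1 position in columns 2 and 3 had a proteasome median below that of all genes (median difference -0.14). In columns 4 to 7 this held for 17 of 31 such treatments. The lower medians moved with plate column, and the part of the compounds in them was not tested. The 8 treatments described above lay in columns 8 to 12, except Quisinostat in column 4.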

How the data were processed

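MAC-seq gave each well of K562 RNA a barcode before the 3′ ends of pooled mRNAs were sequenced. The authors deposited 1 table per plate of expected counts (gene and ERCC values were all whole; 6 summary lines were left out). The submitters' processing notes name GRCh37 (hg19), R 4.0.2, cutadapt 2.1, FastQC 0.11.6 and bcl2fastq 2.17.1.14; aligner and counter: not given in the sources used here. Counts are called reads here. Reads per molecular identifier were 1.63 to 3.53 on average per well, which does not settle whether the counts are reads or molecules. Symbols matched 51996 of 57905 gene lines; promoter sequences are from RefSeq, GRCh38.p14.

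Genes that filterByExpr kept went into edgeR 4.0.16 (R 4.3.3): TMM scaling, 1 model with treatment and plate, the quasi-likelihood test, and Benjamini-Hochberg adjustment over 10312 genes at 0.05. CPM are TMM-scaled counts per 1000000. A faster solver of the same likelihood was checked against edgeR on 300 genes, where log2 fold changes differed by at most 1.6e-06, and on simulated data. For same-position wells the chi-square of their counts over its degrees of freedom was 1.10 to 2.71, and 0 of 96 pairs were identical.

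The members, the gene lists, the 8 main treatments and the tests were chosen with earlier results of these data known. Genes named per treatment and direction are the 3 largest called changes with the same sign in every treated well against the plate's DMSO mean; other called genes are named to account for the counts. Alternatives were scaling by DESeq2 size factors, library size or ERCC, no filter, no plate term, leaving out the first column or a plate, each treatment with DMSO alone in edgeR or in DESeq2 1.42.0, limma-voom 3.58.1, and methylation compounds as reference. A further gene list that was tested is not reported here.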

Additional observations from a re-analysis of the deposited data

How the results depend on the processing

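Counts of genes called are given with the main count in brackets. With ERCC scaling, higher and lower calls were 0 (16) and 37 (4) under AZ5576, 0 (14) and 40 (4) under ActD, 0 (11) and 34 (3) under DRB, 0 (8) and 31 (2) under THZ531, 0 (4) and 29 (3) under OTS964, 3 (8) and 1 (4) under Okadaic acid, and 0 (4) and 1 (4) under Quisinostat; under Panobinostat 0 (3) were higher. The direction reversed with ERCC scaling for PSMA3 (-0.15), PSMB2 (-0.23) and PSMD10 (-0.31) under AZ5576, PSME3 (-0.37), PSMA1 (-0.43) and PSMA2 (-0.45) under ActD, PSMB2 (-0.41), PSMA3 (-0.42) and PSMA7 (-0.43) under DRB, PSME3 (-0.29), PSMA3 (-0.30) and PSMB6 (-0.35) under THZ531, and PSMA3 (-0.30), PSMB1 (-0.35) and PSMD8 (-0.37) under OTS964. ERCC scaling moved the median of all genes by -0.74, -0.92, -0.88, -0.82 and -0.75 under AZ5576, ActD, DRB, THZ531 and OTS964. It called 6.92% of all genes higher and 11.2% lower under Okadaic acid. It called 6.73% higher and 6.08% lower under Quisinostat, and 4.88% higher under Panobinostat. With library size alone, higher and lower calls were 2 and 17 under AZ5576, 7 and 12 under ActD, 0 and 13 under DRB, 0 and 7 under THZ531, 1 and 6 under OTS964, and 5 and 8 under Okadaic acid, and 1 was higher under Quisinostat; none of the 45 named results reversed. Over all genes, library size alone called 4.75% higher and 45.5% lower under AZ5576, 10.1% and 33.0% under ActD, 3.29% and 26.1% under DRB, 2.14% and 12.2% under THZ531, 1.76% and 14.7% under OTS964, 11.6% and 17.9% under Okadaic acid, and 8.93% higher under Quisinostat. DESeq2 size factors gave 8 lower under ActD, 7 higher under DRB, and 5 higher and 8 lower under Okadaic acid. With these factors, 28.7% of all genes were lower under ActD and 9.44% higher under DRB. Under Okadaic acid 11.2% were higher and 18.6% lower. The causes were not tested.

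From here on, percentages in brackets are the shares of all genes called in that direction in the same setting. With each treatment and DMSO fitted alone, edgeR called 7 higher (10.3%) and 1 lower (13.3%) under DRB. It called 3 higher (3.96%) and 1 lower (5.63%) under THZ531. It called 2 lower (12.2%) under Okadaic acid, 1 higher (8.81%) under Quisinostat and 3 lower (6.21%) under Panobinostat. DESeq2 called 1 lower under DRB (8.68%), 1 lower under THZ531 (3.13%), 1 higher under Quisinostat (8.35%) and 3 lower under Panobinostat (4.49%). Without the filter, 45 proteasome genes were tested, and genes with hardly any counts enter the shares. Those shares are therefore smaller and do not compare with the ones of the other settings. In that setting 7 were higher (2.62%) and 1 lower (3.15%) under DRB. Then 2 were higher under THZ531 (1.28%), 2 higher under OTS964 (1.32%) and 3 lower under Panobinostat (1.59%). limma-voom called 1 lower under DRB (11.7%) and 1 lower under THZ531 (4.50%), and leaving out the first column gave 1 lower under THZ531 (7.04%). With methylation compounds as the reference, 10 were higher under OTS964 (8.14%) and 5 under Panobinostat (10.99%). The proteasome median minus that of all genes was then 0.31 and 0.04, against 0.22 and -0.01 with DMSO as the reference. The part of the plate columns of these reference compounds in the added rises was not tested.

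Without the plate as a replicate block, 1 gene was lower under THZ531 (7.55%) and 1 higher under Quisinostat (9.85%), and other counts stayed within 1.5 times. Over the 12 DMSO positions, deviations of wells that share a position correlated at 0.035 to 0.166 (median 0.084). Leaving out either plate leaves 1 well for 6 of the treatments, so calls are given only for AZ5576 and ActD. Without plate 1, 11 were higher (11.99%) and 2 lower (15.85%) under AZ5576. Under ActD 9 were higher (9.52%) and 0 lower (13.81%). Without plate 2, 11 were higher (10.42%) and 2 lower (13.47%) under AZ5576. Under ActD 7 were higher (9.66%) and 2 lower (11.76%). The shares of all genes were thus also below those with both plates. For the 6 others, the proteasome median minus that of all genes is given without plate 1 and without plate 2. It was 0.31 and 0.31 under DRB, 0.30 and 0.18 under THZ531, and 0.17 and 0.32 under OTS964. It was 0.20 and 0.08 under Okadaic acid, 0.03 and -0.01 under Quisinostat, and -0.12 and 0.06 under Panobinostat. Fewer wells are part of that setting. PSMD5 had as few as 2 reads in a well, and PSME4 as few as 1.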
